A study of Mus musculus with 27 samples.

Results

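Whole aorta collected without stripping was compared between 2 genotypes, labelled Cre and TKO, by bulk RNA sequencing over all genes. The 6 libraries, 3 Cre and 3 TKO, were taken from the non-stripped aorta table by their genotype label, and they are 6 of the 27 samples in 10 groups of the series. All mice of both genotypes had the C57BL/6 strain background and had received angiotensin II (Ang II) for 28 days, so there is no untreated group. The labels spell out neither Cre nor TKO, nor the promoter that drives the Cre, the cells that carry a deletion, or the age or sex of the mice. The title of the series names a KLF10 and IL-9 axis in CD4+ T cells. Comparison groups used below are stripped aorta with 4 Cre and 2 TKO libraries, fibroblasts isolated from aorta with 3 of each, and dissociated non-stripped aorta for single-cell sequencing with 2 of each, all with Ang II for 28 days. Non-stripped TKO aorta given Ang II with IgG (3) or with an IL-9 antibody (2) is cited for levels only.

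Klf10 encodes a zinc-finger transcription factor of the Krüppel-like family that is induced by transforming growth factor beta. Interleukin 9 is a cytokine made by T cells and mast cells, read by a receptor of which Il9r encodes the specific chain. Ang II is the effector hormone of the renin-angiotensin system and raises blood pressure. The aortic wall is made of endothelium, smooth muscle with elastic lamellae, and an adventitia of fibroblasts, nerves and immune cells, and it lies in fat whose cells in the mouse thorax resemble brown adipocytes.

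Total counts per library were 17359198 to 26998674, and mitochondrially encoded transcripts took 16.9% to 21.0% of them. TKO replicate 3 stood apart from the rest: on the first principal component, which held 63.6% of the variance, it lay at 50 while the other 5 libraries lay between -30.7 and 12.5. Smooth muscle, endothelial, fibroblast and adipocyte markers were all detected, with 20 of 20 endothelial, 20 of 20 white adipocyte, 21 of 22 smooth muscle contractile and 15 of 16 brown adipocyte genes passing the filter on low counts. The summed level of the brown adipocyte list was 9060 to 12970 CPM (counts scaled by library size but not by gene length) over the 6 libraries, and that of the smooth muscle list 1278 to 4430 CPM. Levels of different genes are therefore not ranked against each other.

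Klf10 was at 40.7, 50.2 and 65.8 CPM in the Cre libraries and at 41.3, 35.4 and 0 CPM in the TKO libraries. TKO replicate 3 had no Klf10 count, which allows up to 0.173 CPM, while TKO replicate 1 lay inside the Cre range. The log2 fold change, TKO over Cre throughout, was -1.02 ± 0.97 (SE; adjusted p = 0.595), and it was -0.44 without TKO replicate 3 (adjusted p = 0.368). The groups overlapped. A level in whole tissue checks the label only if the deletion covers most cells that express the gene, which the labels do not state. They also do not say whether the 3 TKO libraries come from animals with the same deletion, and this was not tested. Every TKO over Cre value below thus treats as 1 group libraries with 822, 696 and 0 Klf10 counts. In the other tables, scaled apart, no TKO library was at 0 for Klf10. It was at 37.3 and 20.6 CPM in stripped TKO aorta, against 29.7 to 62.8 CPM in stripped Cre aorta. TKO fibroblasts ran from 58.3 to 71.2 CPM and Cre fibroblasts from 60.96 to 73.25 CPM. Non-stripped TKO aorta was at 28.5 to 47.4 CPM with IgG and at 23.4 and 20.8 CPM with the IL-9 antibody. Summed single-cell libraries held 60.01 and 62.9 CPM in TKO and 62.9 and 45.96 CPM in Cre. Il9 had 0 counts in each of the 6 libraries, which allows up to 0.111 to 0.173 CPM per library. Il9r was at 0.155, 0.213 and 0.939 CPM in Cre and at 0.502, 0.153 and 0.523 CPM in TKO, with overlapping groups and a log2 fold change of -0.14 ± 0.75 (adjusted p = 0.939) that turned to 1.08 without Cre replicate 3.

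Of 15162 genes tested with edgeR's quasi-likelihood test, 18 (0.119%) passed an adjusted p of 0.05, 9 higher and 9 lower in TKO (0.0594% each). Their adjusted p ran up to 0.0387, and the next gene was at 0.0528. At an unadjusted p under 0.05 there were 1827 higher genes (12.0%) and 887 lower genes (5.85%). The count of calls moved with single libraries: it was 4, 1 and 0 without Cre replicates 1, 2 and 3, and 10, 486 and 224 without TKO replicates 1, 2 and 3. At 0 calls, 2416 genes still had an unadjusted p under 0.05. All 18 genes were among the 224 called without TKO replicate 3 (200 higher, 24 lower), and all 18 were also called by DESeq2, which called 794 genes. None of the 18 kept its call in all 6 fits that left out a library. For each of the 18, every TKO library lay outside the range of the Cre libraries, as the plot of their levels shows. The 18 were picked by a test on these same libraries, which favours such separation, so it is no further evidence. Over all tested genes, every TKO library lay above every Cre library in 14.9% and below in 10.6%.

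**Figure D1:**
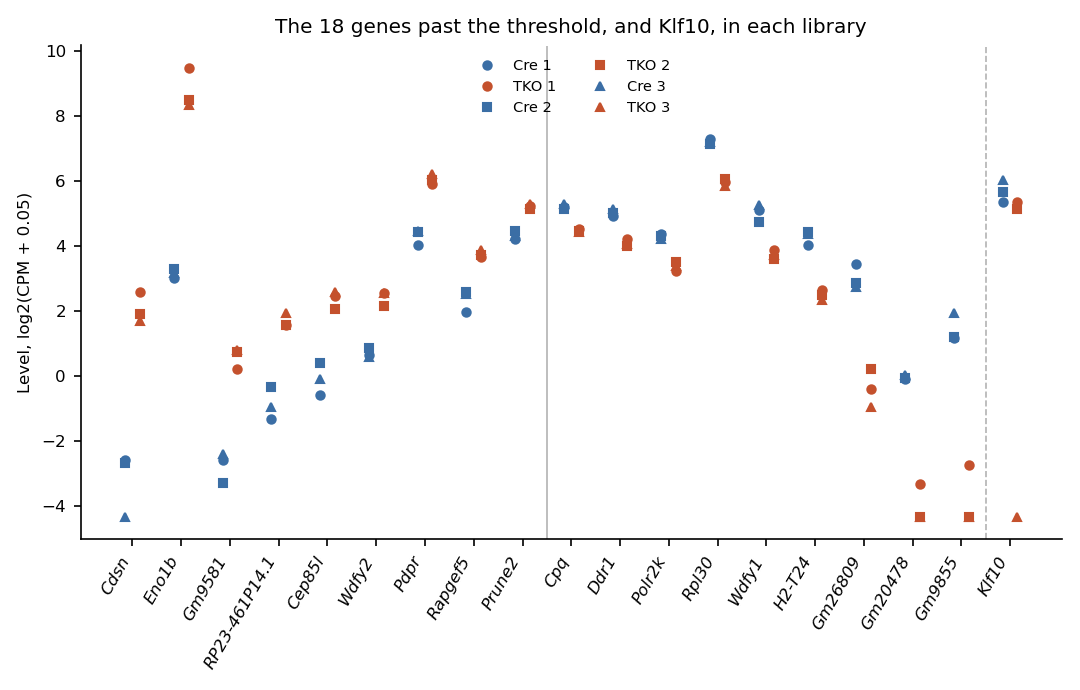
Level of each of the 18 genes past the threshold and of Klf10, as log2(CPM + 0.05), in the 3 Cre (blue) and 3 TKO (orange) libraries of non-stripped aorta; one symbol shape per replicate. Genes higher in TKO stand left of the solid line and genes lower in TKO right of it; Klf10, right of the dashed line, was not called and reaches the floor only in TKO replicate 3.

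The smallest adjusted p was that of Eno1b, on chromosome 18, a copy of the glycolytic enzyme gene Eno1. It was at 8.11, 9.68 and 8.88 CPM in Cre and at 713, 364 and 322 CPM in TKO, a log2 fold change of 5.72 ± 0.34 (adjusted p = 0.00198). All 3 TKO libraries were far above the Cre libraries. Eno1 itself, an enolase of glycolysis, was at 4435, 4151 and 3511 CPM in Cre and at 2394, 3132 and 2698 CPM in TKO, with no overlap and a log2 fold change of -0.56 ± 0.15 that did not pass (adjusted p = 0.11). Of the 50-base windows of the Eno1b transcript, 76.4% occur letter for letter in transcripts of Eno1, so the counting could split reads between them and both values are uncertain. Eno1b made up 0.182% to 0.252% of the sum of both genes in Cre and 10.4% to 23% in TKO. That sum was 3520 to 4443 CPM in Cre and 3020 to 3496 CPM in TKO.

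Pdpr (chr8:111094630-111137074, plus strand) encodes the regulatory subunit of pyruvate dehydrogenase phosphatase, which switches the pyruvate dehydrogenase complex on. It was at 16.4, 21.5 and 22.03 CPM in Cre and at 59.5, 65.7 and 73.8 CPM in TKO. Each TKO library exceeded the highest Cre library, with a log2 fold change of 1.73 ± 0.14 (adjusted p = 0.00711), and it was 1.65 without TKO replicate 3. Of the 17 tested genes of the complex, its kinases, phosphatases, lipoylation enzymes and pyruvate carriers, Pdpr alone was called, and the median log2 fold change was -0.02. The phosphatase catalytic subunit Pdp1 was at 9.46, 8.88 and 10.1 CPM in Cre and 10.8, 10.7 and 21.2 CPM in TKO, a change of 0.58 ± 0.26 that did not pass (adjusted p = 0.291) and was 0.18 without TKO replicate 3.

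Cdsn (chr17:35552128-35557180, plus strand) encodes corneodesmosin, an adhesion protein of the outer epidermis. It had 5 counts over the Cre libraries (0.116, 0.106 and 0 CPM) and 248 counts over the TKO libraries (6.03, 3.71 and 3.20 CPM). The ratio of summed counts was 57.5 (95% exact binomial interval 24.3 to 179, counting error only), with an adjusted p of 0.0149. None of the other 7 tested genes of the epidermal list was called. Krt10, a keratin of differentiated epidermis, was at 3.84, 3.99 and 2.72 CPM in Cre and 3.52, 3.76 and 3.37 CPM in TKO, and Krt1 had too few counts to be tested.

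Prune2 (chr19:16956118-17223932, plus strand), a long gene named for its similarity to a phosphodiesterase, was at 18.7, 22.02 and 19.6 CPM in Cre and at 37.5, 35.5 and 39.3 CPM in TKO. Its change of 0.90 ± 0.10 (adjusted p = 0.0276) came with little spread inside either group. Rapgef5 (chr12:117516479-117759737, plus strand), an exchange factor for Rap GTPases, was at 3.88, 5.90 and 5.68 CPM in Cre and at 12.8, 13.2 and 14.8 CPM in TKO, a change of 1.40 ± 0.18 (adjusted p = 0.0387). Wdfy2 (chr14:62837678-62961509, plus strand), a FYVE-domain protein of early endosomes, was at 1.51, 1.75 and 1.46 CPM in Cre and at 5.83, 4.37 and 5.87 CPM in TKO, a change of 1.77 ± 0.20 (adjusted p = 0.0276). Cep85l (chr10:53273443-53379947, minus strand), which encodes a centrosomal protein, was at 0.62, 1.28 and 0.892 CPM in Cre and at 5.42, 4.17 and 5.93 CPM in TKO. Its change was 2.49 ± 0.29 (adjusted p = 0.0276). The gene span of Cep85l holds Pln on the other strand, the phospholamban gene of muscle calcium handling, which was at 1.98, 2.5 and 1.17 CPM in Cre and 1.36, 1.83 and 3.37 CPM in TKO and was not called. Gm9581 and RP23-461P14.1, both without a position in the annotation used, rose by 3.72 ± 0.42 (adjusted p = 0.0276) and 2.63 ± 0.31 (adjusted p = 0.0284). Gm9581 had 7 counts over the Cre libraries and 83 over the TKO libraries, and RP23-461P14.1 had 33 and 180.

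Among the genes that fell, Rpl30 and Polr2k belong to the machinery of gene expression. Rpl30 (chr15:34440505-34443640, minus strand), a protein of the large ribosomal subunit, was at 158, 142.0 and 146 CPM in Cre and at 62.7, 66.5 and 57.5 CPM in TKO. No TKO library came near the Cre range, and the log2 fold change was -1.26 ± 0.10 (adjusted p = 0.00691). Of the 50-base windows of its transcripts 28.7% occur in transcripts of other genes, so some of its reads may be shared. Of 34 tested ribosomal protein genes Rpl30 alone was called, and 31 had a negative change. Wholly below the Cre libraries lay 6, against 10.6% of all tested genes. The median log2 fold change was -0.08, and 0.007 with exon length as an offset. Rpl28 followed, at 287, 256 and 248 CPM in Cre and 237, 220 and 176 CPM in TKO, a change of -0.32 ± 0.13 that did not pass (adjusted p = 0.246). Polr2k (chr15:36174010-36177010, plus strand), the smallest subunit shared by the RNA polymerases, was at 20.7, 19.9 and 18.6 CPM in Cre and at 9.29, 11.3 and 10.3 CPM in TKO. Its change was -0.94 ± 0.12 (adjusted p = 0.0381). Of the 50-base windows of its transcripts 21.6% occur in transcripts of other genes, so here too some reads may be shared. Polr2k was called alone among 12 tested core and shared subunits of RNA polymerase II, of which 10 had a negative change. Of the 12, 5 lay wholly below the Cre libraries, against 10.6% of all tested genes. The median of the 12 was -0.21 (-0.12 without TKO replicate 3 and -0.14 with exon length as an offset). Polr2b, the second largest subunit, lay wholly above, at 42.4, 43.8 and 43.5 CPM in Cre and 46.9, 49.3 and 50.7 CPM in TKO (0.18 ± 0.08, adjusted p = 0.291).

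H2-T24 (chr17:36005695-36020560, minus strand), a non-classical major histocompatibility complex (MHC) class I gene, was at 16.2, 21.7 and 20.6 CPM in Cre and at 6.23, 5.54 and 5.00 CPM in TKO. It fell by 1.80 ± 0.16 on the log2 scale (adjusted p = 0.00925). Ddr1 (chr17:35681567-35704621, minus strand), a receptor tyrosine kinase that binds collagen, was at 30.4, 32.2 and 35.4 CPM in Cre and at 18.7, 16.1 and 16.9 CPM in TKO. Its change was -0.92 ± 0.11 (adjusted p = 0.0276), the only call among 19 tested collagen and matrix receptors. Its relative Ddr2 was at 27.6, 29.4 and 35.8 CPM in Cre and 35.0, 34.2 and 56.6 CPM in TKO, with overlap. Wdfy1 (chr1:79702262-79776143, minus strand), an endosomal FYVE-domain protein like Wdfy2, was at 34.7, 26.4 and 38.7 CPM in Cre and at 14.6, 12.0 and 13.3 CPM in TKO. It fell by 1.32 ± 0.16 on the log2 scale (adjusted p = 0.0284), opposite to the rise of Wdfy2. Cpq (chr15:33083129-33594552, plus strand), a secreted carboxypeptidase, was at 36.9, 34.9 and 39.0 CPM in Cre and at 23.1, 22.2 and 21.8 CPM in TKO. The change of Cpq was -0.72 ± 0.09 (adjusted p = 0.0341).

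The remaining 3 genes that fell are non-coding or pseudogenes. Gm26809 (chr6:18844220-18847360, plus strand), a long intergenic RNA, was at 10.9, 7.18 and 6.62 CPM in Cre and at 0.703, 1.12 and 0.465 CPM in TKO, a change of -3.41 ± 0.33 (adjusted p = 0.0154). It overlaps Gm20186 on the other strand, and whether the counting used strand is not stated in the labels or the submitters' notes. Gm9855 (chr10:42054113-42055306, minus strand), a processed pseudogene, had 179 counts over Cre and 2 over TKO, a Cre to TKO ratio of 77.2 (95% interval 21.1 to 642; adjusted p = 0.0276). Of its 50-base windows 76.5% occur in Tdg, the thymine DNA glycosylase gene, which was at 9.42, 10.5 and 4.27 CPM in Cre and 13.7, 17.9 and 15.8 CPM in TKO and did not pass (0.97 ± 0.29, adjusted p = 0.146). Gm20478 (chr17:36167982-36171805, plus strand), an antisense transcript that overlaps the class I gene Gm8909, had 61 counts over Cre and 1 over TKO, a ratio of 52.6 (95% interval 9.09 to 2111; adjusted p = 0.0334).

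Beyond the calls, the 15 genes per direction with the smallest unadjusted p were taken among genes with a mean of at least 1 CPM and no overlap between the groups, predicted genes and pseudogenes left out. None of them passed, and their lack of overlap was fixed by this choice. The 15 higher ones included Kif5c (a neuronal kinesin), Ank2 (an ankyrin), Syt4 (a synaptotagmin), Nalcn (a sodium leak channel), Syn2 (a synapsin) and Kcnc1 (a potassium channel). Kif5c was at 10.0, 8.93 and 9.63 CPM in Cre and at 16.1, 19.8 and 20.6 CPM in TKO (0.98 ± 0.13, adjusted p = 0.0528). Kcnc1 was at 0.814, 1.12 and 1.41 CPM in Cre and at 3.42, 5.29 and 7.67 CPM in TKO (2.29 ± 0.35, adjusted p = 0.0591). Others were Usp9x (a deubiquitinase), Atp7a (a copper transporter), Faxc, Lmbrd2, Kmt2c (a histone methyltransferase), Zbtb37, Vps13d (a lipid transfer protein), Atp8a2 (a phospholipid flippase) and Cdh15, the cadherin of muscle precursors. Atp7a was at 1.82, 2.61 and 2.77 CPM in Cre and at 7.28, 6.25 and 6.39 CPM in TKO (1.48 ± 0.20, adjusted p = 0.0546). Cdh15 was at 0.194, 0.213 and 0.0939 CPM in Cre and at 1.51, 1.37 and 3.72 CPM in TKO (3.66 ± 0.56, adjusted p = 0.0592). Most of the 15 have over 8 kb of summed exons, as do 2437 of the 13262 tested protein-coding genes. With exon length as an offset, the change went from 0.71 to 0.38 for Ank2, 0.64 to 0.36 for Vps13d and 0.56 to 0.32 for Kmt2c. It was larger with the offset only for Syt4 and Cdh15. The part of gene length in this choice of genes was not tested. Without TKO replicate 3 or 2 all 15 had an adjusted p under 0.05, from 0.0246 to 0.0408 and from 0.0329 to 0.0422. None of the 15 did without another library: the range was 0.0525 to 0.0651 without TKO replicate 1, and 0.19 to 0.273, 0.14 to 0.167 and 0.183 to 0.215 without Cre replicates 1, 2 and 3.

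Of the 15 lower genes chosen in the same way, Gldn, a collagen-like adhesion protein of nodes of Ranvier, was at 15.4, 8.19 and 12.3 CPM in Cre and at 2.31, 3.66 and 1.86 CPM in TKO (-2.19 ± 0.31, adjusted p = 0.0547). Cyp26b1, which degrades retinoic acid, was at 9.23, 4.41 and 14.7 CPM in Cre and at 1.96, 2.75 and 1.69 CPM in TKO (-2.14 ± 0.42, adjusted p = 0.0746). Tbx5, a transcription factor of heart and forelimb, was at 6.63, 5.21 and 6.34 CPM in Cre and at 2.21, 3.05 and 1.74 CPM in TKO (-1.37 ± 0.23, adjusted p = 0.0638). Prdm16, a regulator of brown adipocytes, showed the same order of groups. It was at 40.0, 44.0 and 34.3 CPM in Cre and at 25.9, 22.4 and 21.0 CPM in TKO (-0.77 ± 0.13, adjusted p = 0.06). Col4a6, a basement membrane collagen, was at 3.06, 2.82 and 2.91 CPM in Cre and at 0.954, 1.53 and 1.34 CPM in TKO (-1.20 ± 0.23, adjusted p = 0.0737). The others were Cmbl, Gpr137b, Ica1, Cd200 (an inhibitory ligand for myeloid cells), Laptm4b, H2-Q6, Ppp1r11, Myh11, Adamts10 (a protease of microfibrils) and Rfxank (a regulator of MHC class II genes), with log2 fold changes from -1.27 for H2-Q6 to -0.48 for Laptm4b.

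Genes of fast skeletal muscle were the list that differed most in size. All 24 tested members were higher in every TKO library than in every Cre library, against 14.9% of all tested genes, and the median log2 fold change was 3.21 against -0.02 over all genes. None of the 24 passed edgeR's test, while DESeq2 called all 24. Myh4, the myosin of the fastest fibres, was at 36.5, 89.6 and 37.9 CPM in Cre and at 958, 355 and 2414 CPM in TKO (4.51 ± 0.72, adjusted p = 0.0592). Ckm, the muscle creatine kinase, was at 43.9, 147 and 76.0 CPM in Cre and at 545, 445 and 1714 CPM in TKO (3.34 ± 0.62, adjusted p = 0.0729). Mylpf, a fast myosin light chain, was at 20.4, 60.4 and 34.7 CPM in Cre and at 184, 212 and 677 CPM in TKO (3.22 ± 0.59, adjusted p = 0.0729). The summed level of the list was 723, 2414 and 1305 CPM in Cre and 7817, 6946 and 27670 CPM in TKO, and no member was at 0. TKO replicate 3 held the highest value of each member named here. Without it the median was 2.27 and 18 of the 24 were called, and 18 were also called without TKO replicate 2. Over all genes, too, more were called in these fits and by DESeq2 than in the main fit, as given above. The slow and cardiac list moved with the fast list, with a median of 2.32 (1.44 without TKO replicate 3) and 8 of 16 tested members wholly above. Myh7, the slow myosin, was at 3.96, 50.3 and 38.5 CPM in Cre and at 145, 120 and 633 CPM in TKO (3.28 ± 0.94, adjusted p = 0.124). The cardiac troponin Tnni3 was at 0.62, 0.957 and 0.845 CPM in Cre and at 0.753, 0.966 and 0.697 CPM in TKO, with overlap. In bulk tissue, fewer cells of a type and less RNA per cell cannot be told apart, and the same holds for more. The part of these muscle transcripts in the other changes was not tested.

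Promoters of 3 genes of this list are shown because its genes moved together, as the 250 bases before the RefSeq gene start (GRCm38.p6), 5′ to 3′ on the gene's strand. Only windows that hold the marked letters were eligible for display, so their presence in the 3 was fixed by this choice. Capitals mark CAGCTG, the letters of an E-box read by myogenic factors, which is its own reverse complement, so a single pass reads both strands. The windows are Myh4 at chr11:67237562-67237811 (plus), Ckm at chr7:19410844-19411093 (plus) and Mylpf at chr7:127211358-127211607 (plus).
Myh4: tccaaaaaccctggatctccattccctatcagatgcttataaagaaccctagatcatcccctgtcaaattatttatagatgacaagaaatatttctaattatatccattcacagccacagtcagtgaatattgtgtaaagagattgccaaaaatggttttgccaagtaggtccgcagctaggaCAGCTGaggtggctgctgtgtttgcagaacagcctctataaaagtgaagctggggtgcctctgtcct
Ckm: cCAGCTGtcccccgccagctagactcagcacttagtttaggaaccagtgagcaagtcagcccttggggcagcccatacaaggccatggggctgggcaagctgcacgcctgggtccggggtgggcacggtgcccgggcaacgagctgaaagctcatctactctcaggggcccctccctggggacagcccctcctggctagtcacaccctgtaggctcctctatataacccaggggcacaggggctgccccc
Mylpf: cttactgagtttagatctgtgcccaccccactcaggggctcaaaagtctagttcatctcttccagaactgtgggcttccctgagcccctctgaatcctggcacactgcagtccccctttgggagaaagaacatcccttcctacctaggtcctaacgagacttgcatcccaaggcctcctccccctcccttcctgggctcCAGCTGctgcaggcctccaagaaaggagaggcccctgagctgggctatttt
RefSeq gave windows for 18 of the 24 members, and 11 of their 21 windows (52.4%) held CAGCTG, against 13% of all 32851 windows of the same length. Of the 18 members 10 had such a window, while Pvalb, Eno3, Mybpc2, Myh1, Myh2, Ryr1, Tnnc2 and Ttn had none. A match is a description of letters, not of a bound site.

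Genes of the smooth muscle contractile apparatus went both ways. Of 21 tested members 12 were lower in every TKO library (10.6% of all genes were) and 5 were higher in every TKO library (14.9%). The median was -0.73, and none passed. The lower ones included Acta2, the smooth muscle actin, at 277, 137 and 173 CPM in Cre and at 50.7, 94.4 and 80.0 CPM in TKO (-1.38 ± 0.30, adjusted p = 0.0803). Myh11, the smooth muscle myosin, was at 133, 98.0 and 119 CPM in Cre and at 49.3, 68.5 and 70.4 CPM in TKO (-0.90 ± 0.16, adjusted p = 0.0729). Itga8, an integrin of smooth muscle, was at 20.6, 10.6 and 13.6 CPM in Cre and at 3.57, 7.27 and 5.23 CPM in TKO (-1.48 ± 0.31, adjusted p = 0.0803). In these genes Cre replicate 1 was highest and TKO replicate 1 lowest. The higher ones included Tpm1, Tpm2, Des and Synpo2, which striated muscle also expresses. Des, which encodes desmin, was at 74.7, 126 and 99.6 CPM in Cre and at 230, 305 and 875 CPM in TKO (2.23 ± 0.48, adjusted p = 0.0803), and it was highest in TKO replicate 3 like the skeletal muscle genes. Without TKO replicate 3, 4 members were called higher and 1 lower, and without TKO replicate 2, 4 higher and 2 lower. Calls over all genes were also more numerous in these fits, as given above.

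Matrix genes differed less. The 20 tested collagens had a median of 0.04, with 2 wholly above and 3 wholly below, and none passed. Over all tested genes 14.9% lay wholly above and 10.6% wholly below. Col4a2, a basement membrane collagen, was at 359, 412 and 432 CPM in Cre and at 348, 331 and 275 CPM in TKO (-0.33 ± 0.13, adjusted p = 0.22). Col12a1, a fibril-associated collagen, was at 9.11, 6.33 and 8.41 CPM in Cre and at 10.3, 10.2 and 16.0 CPM in TKO (0.61 ± 0.22, adjusted p = 0.201). Of 19 tested elastic fibre genes 2 lay wholly below and 1 above. Eln, which encodes elastin, was at 169.6, 94.8 and 144 CPM in Cre and at 62.6, 82.6 and 77.6 CPM in TKO (-0.87 ± 0.21, adjusted p = 0.0877), and Emilin1 was at 16.4, 15.9 and 18.6 CPM in Cre and at 12.7, 11.1 and 12.0 CPM in TKO (-0.51 ± 0.12, adjusted p = 0.0868).

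Endothelial markers had mostly negative changes, and none passed. Of 20 tested, 19 had a negative change and the median was -0.29. Wholly below the Cre libraries lay 10 and wholly above 1, against 10.6% and 14.9% of all tested genes. Cldn5, a tight junction protein, was at 48.1, 64.7 and 60.9 CPM in Cre and at 40.8, 38.0 and 36.4 CPM in TKO (-0.59 ± 0.12, adjusted p = 0.0803). Cdh5, the cadherin of endothelial junctions, was at 177, 214 and 209 CPM in Cre and at 150.1, 152 and 133 CPM in TKO (-0.47 ± 0.11, adjusted p = 0.0877). Kdr, a receptor for vascular endothelial growth factor, was at 216, 258 and 266 CPM in Cre and at 179.9, 210.1 and 157 CPM in TKO (-0.44 ± 0.14, adjusted p = 0.154). The list's median ran from -0.37 to -0.24 over the fits that left out a library.

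MHC class I genes were lower at some loci. Of 16 tested, 7 were lower in every TKO library (10.6% of all genes were) and none was wholly above. The median was -0.30 (-0.12 without TKO replicate 3, -0.14 without Cre replicate 3 and -0.52 without TKO replicate 1). Beside H2-T24, the lower ones were H2-Bl, H2-Q6, H2-Q7, H2-Q4 and H2-T10, class I genes outside the classical loci, and Tap2, a subunit of the peptide transporter. H2-Q6 was at 41.3, 53.4 and 70.0 CPM in Cre and at 29.5, 19.2 and 19.4 CPM in TKO (-1.27 ± 0.23, adjusted p = 0.0729). H2-Q7 was at 32.3, 38.3 and 53.2 CPM in Cre and at 28.0, 17.0 and 15.2 CPM in TKO (-1.04 ± 0.26, adjusted p = 0.0944). H2-Bl was at 0.659, 0.585 and 0.939 CPM in Cre and at 0.0502, 0 and 0 CPM in TKO (adjusted p = 0.0591). The classical genes overlapped between the groups: H2-K1 was at 382, 417 and 529.5 CPM in Cre and 545, 376 and 281 CPM in TKO. H2-D1 was at 418, 448 and 573 CPM in Cre and 589.8, 412 and 338 CPM in TKO. These genes are similar in sequence, so reads shared between them make single values uncertain.

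Clock genes separated the TKO libraries from each other. The median over 22 tested members was 0.47 (0.30 without TKO replicate 1), 18 changes were positive, and none passed. Wholly above the Cre libraries lay 3 members, against 14.9% of all tested genes. Dbp, a transcription factor under direct clock control, was at 5.24, 4.31 and 12.3 CPM in Cre and at 136, 5.49 and 62.8 CPM in TKO (3.22 ± 0.94, adjusted p = 0.132). Per2, a repressor of the core loop, was at 5.24, 3.46 and 3.48 CPM in Cre and at 41.2, 3.71 and 21.2 CPM in TKO (2.43 ± 0.70, adjusted p = 0.127). Ciart, a repressor of the same loop, was at 2.21, 1.92 and 1.46 CPM in Cre and at 22.6, 1.37 and 12.2 CPM in TKO (2.68 ± 0.79, adjusted p = 0.136). In each of these, TKO replicates 1 and 3 were high and TKO replicate 2 lay at the level of the Cre libraries. The activators had the opposite order: Arntl was at 16.9, 16.2 and 17.6 CPM in Cre and at 2.21, 19.7 and 6.39 CPM in TKO. Npas2 was at 3.45, 5.11 and 5.401 CPM in Cre and at 0.352, 6.56 and 0.581 CPM in TKO. Without TKO replicate 2, 7 clock genes were called higher and 2 lower, and without any other single library none was called. Of the fits that left out a library, the one without TKO replicate 2 also called the most genes over all, as given above. The labels give no hour of collection for any sample.

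Promoters of 3 clock genes are shown for their shared letters, as 250 bases before the RefSeq start (GRCm38.p6). Here too only windows that hold the marked letters were eligible for display. Capitals mark CACGTG, the E-box letters read by the CLOCK and BMAL1 pair, again its own reverse complement and different from CAGCTG. The windows are Ciart at chr3:95882229-95882478 (minus), Tef at chr15:81802423-81802672 (plus) and Bhlhe41 at chr6:145865421-145865670 (minus).
Ciart: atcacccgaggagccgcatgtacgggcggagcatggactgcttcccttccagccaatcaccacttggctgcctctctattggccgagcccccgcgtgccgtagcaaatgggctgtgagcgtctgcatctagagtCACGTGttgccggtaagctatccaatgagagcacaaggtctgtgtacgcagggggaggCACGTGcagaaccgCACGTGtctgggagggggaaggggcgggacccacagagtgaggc
Tef: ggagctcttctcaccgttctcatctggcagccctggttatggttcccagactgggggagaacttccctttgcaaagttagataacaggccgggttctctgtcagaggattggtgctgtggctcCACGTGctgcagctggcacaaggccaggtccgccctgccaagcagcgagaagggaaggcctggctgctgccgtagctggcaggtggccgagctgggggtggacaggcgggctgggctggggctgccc
Bhlhe41: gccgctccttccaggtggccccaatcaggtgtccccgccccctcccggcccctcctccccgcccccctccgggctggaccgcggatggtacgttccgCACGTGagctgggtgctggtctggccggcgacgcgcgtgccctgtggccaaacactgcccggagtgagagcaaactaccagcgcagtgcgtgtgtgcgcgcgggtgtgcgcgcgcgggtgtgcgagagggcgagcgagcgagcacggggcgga
Ciart held the motif 3 times, beginning 116, 58 and 44 bases before the start. RefSeq gave windows for 17 of the 22 clock genes, and 6 of their 25 windows (24%) held CACGTG, against 6.02% of all windows. Of the 17 genes 5 had such a window. Tef was at 85.8, 77.8 and 97.8 CPM in Cre and at 288, 82.0 and 191 CPM in TKO, the same order of libraries as Dbp. Bhlhe41 was at 9.19, 9.25 and 12.2 CPM in Cre and at 37.5, 11.6 and 27.1 CPM in TKO. Dbp, whose libraries showed the same order, has no CACGTG in this window.

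None of the other Krüppel-like factors passed. Of 13 tested, 5 lay wholly above and 1 wholly below, against 14.9% and 10.6% of all tested genes. The median of 0.31 was 0.18 without TKO replicate 1 and 0.17 at a minimum count of 50. Klf9, a target of glucocorticoids and the clock, was at 59.4, 58.7 and 58.1 CPM in Cre and at 113.5, 70.1 and 114 CPM in TKO (0.76 ± 0.18, adjusted p = 0.0869). Klf15, a regulator of muscle and fat metabolism, was at 33.2, 31.6 and 40.5 CPM in Cre and at 71.3, 34.9 and 75.6 CPM in TKO, again with TKO replicate 2 at the Cre level. Klf11, the closest relative of Klf10, was at 16.7, 20.7 and 24.8 CPM in Cre and at 14.5, 13.4 and 16.0 CPM in TKO (-0.50 ± 0.16, adjusted p = 0.158).

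Metabolic lists differed by small amounts. All 34 tested nuclear genes of oxidative phosphorylation had a negative change, with 15 wholly below the Cre libraries (10.6% of all genes were), a median of -0.21 and no call. The median was -0.13 without Cre replicate 1 and -0.12 with exon length as an offset. Cox6c, a subunit of cytochrome oxidase, was at 859.5, 744 and 738 CPM in Cre and at 627, 677 and 509 CPM in TKO (-0.37 ± 0.14, adjusted p = 0.211). Of 21 fatty acid oxidation genes, 17 had a negative change, 8 lay wholly below, and the median was -0.20 (-0.09 without Cre replicate 1 and -0.13 without TKO replicate 3). Of these Acaa2, a thiolase, was at 1958, 1652 and 1842 CPM in Cre and at 1567, 1360 and 1293 CPM in TKO (-0.37 ± 0.13, adjusted p = 0.181). Of 21 glycolysis genes Eno1b was called, and 5 lay wholly above and 2 wholly below, against 14.9% and 10.6% of all tested genes. The others above included Eno3, Pgam2 and Pfkm, muscle forms of glycolytic enzymes. Pgam2 was at 5.74, 17.9 and 9.63 CPM in Cre and at 59.3, 39.2 and 137 CPM in TKO (2.83 ± 0.54, adjusted p = 0.0729). Of 15 brown adipocyte genes 5 lay wholly below, with a median of -0.19 (-0.08 without Cre replicate 1, -0.10 without TKO replicate 3 and -0.08 with the length offset), and the 20 white adipocyte genes had a median of -0.06.

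The list of Schwann cell and neuronal genes held members on both sides. Of 20 tested, 6 lay wholly above and 4 wholly below, against 14.9% and 10.6% of all tested genes, and none passed. Dbh, an enzyme of noradrenaline synthesis, was at 79.4, 84.8 and 76.5 CPM in Cre and at 115, 98.0 and 119 CPM in TKO (0.46 ± 0.10, adjusted p = 0.0828). Th, the enzyme that starts catecholamine synthesis, was at 52.0, 49.6 and 46.1 CPM in Cre and at 64.2, 56.5 and 70.1 CPM in TKO (0.37 ± 0.10, adjusted p = 0.123). On the lower side, S100b, made by Schwann cells and by fat cells, was at 93.1, 72.4 and 73.7 CPM in Cre and at 52.0, 60.4 and 35.8 CPM in TKO (-0.69 ± 0.19, adjusted p = 0.117).

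T cell markers were low. Of 20 listed, 13 could be tested, and 1 lay wholly below and 1 wholly above (10.6% and 14.9% of all tested genes did). Of the 13, 10 had a negative change, with a median of -0.41. This median ran from -0.64 to 0.009 over the fits that left out a library and was 0.20 at a minimum count of 50. The summed level of the list was 38.2 to 53.0 CPM in Cre and 43.6 to 51.9 CPM in TKO. Cd4, the co-receptor of helper T cells, was at 0.776, 1.06 and 1.64 CPM in Cre and at 0.251, 0.661 and 0.639 CPM in TKO (-1.16 ± 0.45, adjusted p = 0.227). Cd3d, Cd3e and Foxp3 had too few counts for the test. Of 17 tested genes of the IL-9 axis and T helper factors, Jak1, a kinase of cytokine receptors, was the only member wholly above. It was at 76.9, 79.8 and 78.3 CPM in Cre and at 99.7, 98.6 and 109.8 CPM in TKO (0.39 ± 0.08, adjusted p = 0.0817). Il4ra, the receptor chain for IL-4, was the only member wholly below (-0.12), and the median of the list was -0.07.

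**Figure D2:**
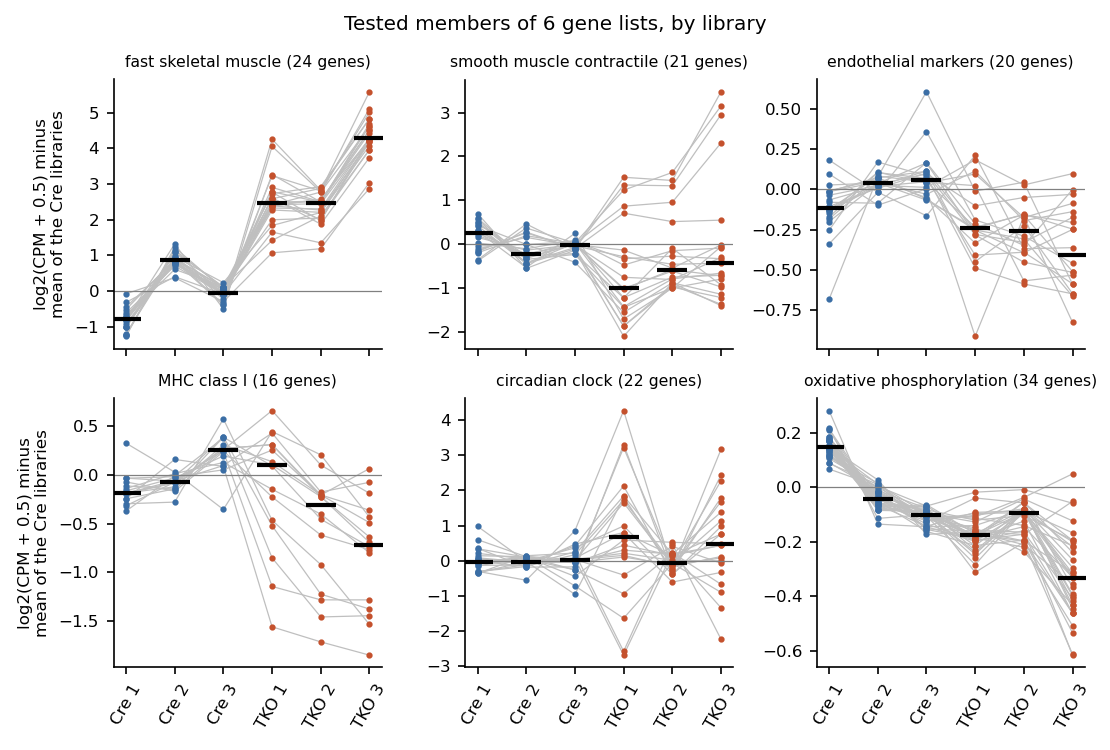
Tested members of 6 gene lists in each library of non-stripped aorta; each dot is a gene, as log2(CPM + 0.5) minus its mean over the 3 Cre libraries, grey lines join the same gene and black bars are medians. All 24 fast skeletal muscle genes lie above the Cre libraries in each TKO library, while the clock genes spread in TKO replicates 1 and 3 and lie near 0 in TKO replicate 2; the panels have different vertical scales.

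Several of the called genes lie near each other. Within 5 megabases on either side of Klf10 (chr15:38291463-38300706), 34 genes were tested and 2 were called, Rpl30 and Polr2k (5.88%, against 0.119% of all tested genes). Of the 34, 9 lay wholly above and 8 wholly below, against 14.9% and 10.6% of all tested genes. Cpq lies outside this window, on the far side of Rpl30. Fzd6, a Wnt receptor 0.715 megabases from Klf10, had a mean of 18.1 CPM over the Cre and 7.72 CPM over the TKO libraries (-1.23 ± 0.27, adjusted p = 0.0821). Within 5 megabases of H2-T24, where the MHC lies, 184 genes were tested and 3 others were called, Cdsn higher and Ddr1 and Gm20478 lower (1.63%). Here 40 genes lay wholly below and 10 wholly above, with a median of -0.16. Of the 5 tested genes on either side of Gm20478, 7 of 10 were lower at an unadjusted p under 0.05, and of those around Cpq 5 of 10, against 5.85% of all genes. Around each of the other called genes with a position, H2-T24 (2) and Rpl30 (3) included, it was 0 to 3. Both windows were chosen with the calls known and are described without a test.

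**Figure D3:**
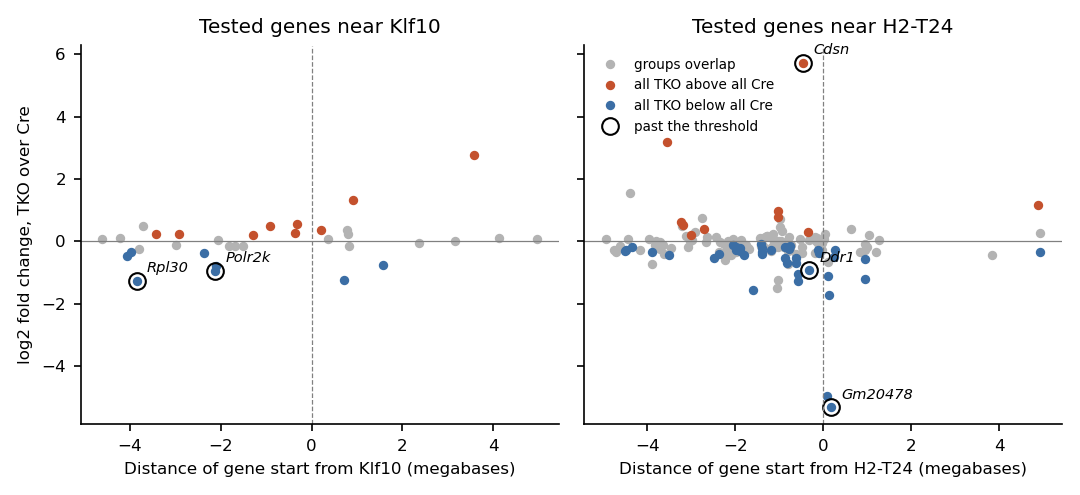
Log2 fold change, TKO over Cre, of the tested genes within 5 megabases of Klf10 (left) and of H2-T24 (right), by the distance of the gene start. Circled genes passed the threshold; orange and blue dots are genes whose 3 TKO libraries lie all above or all below the 3 Cre libraries, and blue dots outnumber orange ones near H2-T24 (40 and 10).

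The share of higher and lower genes differed with gene length. Among tested protein-coding genes, those with over 8 kb of summed exons had a median log2 fold change of 0.13, and 31.8% of them lay wholly above the Cre libraries and 4.68% wholly below. Genes under 1 kb had a median of -0.15, with 7.72% wholly above and 14.2% wholly below. The libraries inside a group differed in the same measure. Relative to the mean of the Cre libraries, the genes under 1 kb had a median of 0.14 in Cre replicate 1 and of -0.04 and -0.08 in Cre replicates 2 and 3. In the TKO libraries it was -0.11, -0.06 and -0.23. TKO replicate 3 was lowest for short genes and, at 0.18, highest for genes over 8 kb. In stripped aorta the order was the reverse, with a median log2 fold change of 0.17 under 1 kb and -0.03 over 8 kb, and in fibroblasts it was -0.12 and 0.06. With exon length as an offset in the fit, an alternative added after seeing the data, 17 genes were called, all among the 18. Of the called genes, Prune2, Wdfy2 and Rapgef5 have over 8 kb of exons (20297, 9185 and 12785 bases) and Polr2k under 1 kb (624 bases).

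**Figure D4:**
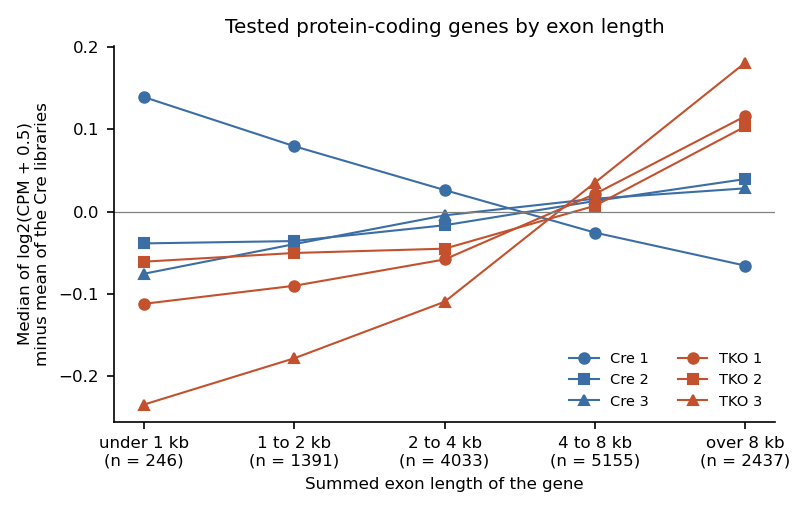
Median over tested protein-coding genes of log2(CPM + 0.5) minus the mean of the Cre libraries, by summed exon length of the gene, for each of the 6 libraries. Short genes are lowest and long genes highest in TKO replicate 3, from -0.23 to 0.18, and Cre replicate 1 runs the other way, from 0.14 to -0.07.

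The 18 genes were read in the other tables, which share no sample with this comparison and were fitted alone. In stripped aorta 16 were tested, 12 had the same direction, 6 had an unadjusted p under 0.05 (13.8% of all genes there did) and none passed, where 0.024% of all genes passed. In fibroblasts 17 were tested, 12 had the same direction, 5 had an unadjusted p under 0.05 (12.1% of all genes) and 2 passed, where 0.0638% of all genes passed. Among these 5, Prune2 had the opposite direction (-0.77 ± 0.24). In sums over the single-cell libraries 13 were tested, 9 had the same direction and none passed by edgeR's test or had an unadjusted p under 0.05, where 0.0% and 1.9% of all genes did. No share of all genes with the same direction is given here for any of these tables.

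Rpl30 and Polr2k were the 2 called in fibroblasts. Rpl30 was at 524, 552 and 442 CPM in Cre fibroblasts and at 190.2, 184 and 195 CPM in TKO fibroblasts (-1.42 ± 0.10, adjusted p = 0.00217). In stripped aorta it was at 404 to 486 CPM in the 4 Cre libraries and at 263 and 262 CPM in the TKO libraries (-0.72 ± 0.12, adjusted p = 0.117). In the single-cell sums the groups overlapped, at 1473 and 2942 CPM in Cre and 1650.0 and 2369 CPM in TKO. Polr2k was at 19.02, 23.2 and 19.6 CPM in Cre fibroblasts and at 9.54, 8.69 and 9.08 CPM in TKO fibroblasts (-1.18 ± 0.11, adjusted p = 0.0146). In stripped aorta it was at 20.7 to 26.9 CPM in Cre and at 11.4 and 14.3 CPM in TKO (-0.93 ± 0.16, adjusted p = 0.117). The non-stripped TKO libraries given IgG or the IL-9 antibody, whose table has no Cre library and was scaled apart, held Rpl30 at 90.0 to 111 CPM and Polr2k at 8.62 to 11.7 CPM.

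Eno1b varied between TKO libraries of the same group. It was at 0.713 to 1.19 CPM in stripped Cre aorta, at 1.22 and 44.0 CPM in stripped TKO aorta, and at 219, 201 and 2.95 CPM in TKO fibroblasts against 2.15 to 2.77 CPM in Cre fibroblasts. With IgG the TKO aortas were at 592, 296 and 368 CPM, and with the IL-9 antibody at 175.5 and 3.55 CPM. Gm9855 varied within groups of both genotypes. It was at 0.199, 0.247 and 6.397 CPM in TKO fibroblasts against 18.1, 7.97 and 6.70 CPM in Cre fibroblasts. In stripped aorta it was at 0.217, 3.93, 0.21 and 2.37 CPM in Cre and at 2.04 and 1.31 CPM in TKO. H2-T24 was at 5.55, 5.43 and 2.69 CPM in the TKO fibroblasts, where the Cre fibroblasts ran from 2.48 to 5.52 CPM.

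Pdpr differed by table. Its change in non-stripped aorta exceeded that in stripped aorta by 1.92 ± 0.22 (adjusted p = 0.0352, the only call among 17501 genes, 0.00571%) and that in fibroblasts by 1.55 ± 0.18 (adjusted p = 0.00426). In stripped aorta it was at 2.76 to 3.78 CPM in Cre and at 3.00 and 2.64 CPM in TKO. The non-stripped TKO libraries given IgG, of the same tissue and genotype label, held 8.60, 8.86 and 11.0 CPM, below the 16.4 to 22.03 CPM of the Cre libraries here, though the tables were scaled apart. Rapgef5, Cep85l, Wdfy2, Gm9581, RP23-461P14.1 and Prune2 in the IgG libraries also lay within or near the range of the Cre libraries here and not of the TKO libraries. Cep85l was at 0.584, 0.464 and 0.878 CPM and Wdfy2 at 1.22, 1.02 and 1.75 CPM. Prune2 was at 24.9, 23.1 and 25.6 CPM with IgG, and at 200 and 183.5 CPM with the IL-9 antibody. Of the other higher genes, Eno1b with IgG lay near its TKO range here, as given above, and Cdsn ran from 1.72 to 7.43 CPM. Among the lower genes, Ddr1 with IgG was at 21.27, 33.15 and 29.9 CPM, above its TKO range here. Wdfy1 (18.13 to 22.23 CPM), Cpq (28.65 to 30.93 CPM), Gm26809 (1.379 to 2.596 CPM) and Rpl30 lay between the Cre and TKO ranges here. Polr2k, H2-T24 (5.642 to 9.922 CPM) and Gm20478 (0 to 0.2318 CPM) lay in or near their TKO ranges. Gm9855 ran from 0.2318 to 2.175 CPM. The single difference called against stripped aorta was not called without any of the non-stripped Cre libraries, without non-stripped TKO replicate 2 or without stripped Cre replicate 2 or 3, each of which left 0 calls by edgeR's test. There were 14 calls without non-stripped TKO replicate 1 or 3, and 7 and 242 without stripped Cre replicates 1 and 4. Without stripped TKO replicates 1 and 2 there were 23 and 4, with the lone TKO library taken to vary like the other groups.

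Against fibroblasts the effect differed for 31 of 16987 genes (0.182%), among them 6 of the 18: Gm9581, Pdpr, Wdfy2, Prune2, Ddr1 and Cep85l. For Ddr1 the change was -0.92 in aorta and 0.40 ± 0.18 in fibroblasts, a difference of -1.33 ± 0.22 (adjusted p = 0.0497). For Prune2 it was 0.90 and -0.77 ± 0.24, a difference of 1.66 ± 0.27 (adjusted p = 0.0481). The collagen genes Col4a6 and Col4a5 differed by -1.89 ± 0.28 (adjusted p = 0.0321) and -1.52 ± 0.27 (adjusted p = 0.0497), and neither passed in aorta or fibroblasts alone. Col4a1, Col4a2 and Col18a1, which also encode basement membrane collagens, were not among the 31. Matn2 and Laptm4b, which lie near Rpl30, differed by -1.37 ± 0.14 and -1.15 ± 0.12 (adjusted p = 0.00159 for both). The count of 31 fell to 4, 5 and 6 without non-stripped Cre replicates 1, 2 and 3, to 10 and 20 without TKO replicates 1 and 3, and rose to 199 without TKO replicate 2. It was 15 without fibroblast Cre replicate 2 and 6, 4 and 4 without fibroblast TKO replicates 1, 2 and 3.

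**Figure D5:**
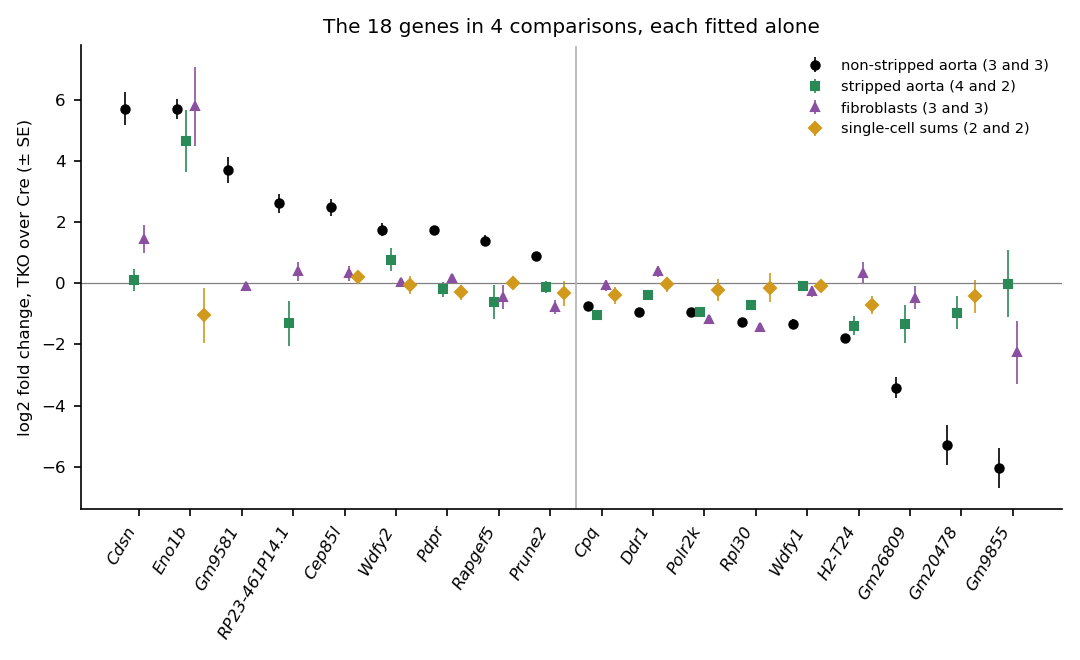
Log2 fold change, TKO over Cre, with its standard error, of the 18 genes in non-stripped aorta (black), stripped aorta (green), fibroblasts (purple) and summed single-cell libraries (yellow), each fitted alone; a missing symbol means that the gene was not tested there, and the values of Cdsn, Gm20478 and Gm9855, with 0 counts in some libraries, depend on the prior count of the fit. Rpl30 and Polr2k have negative changes in all 4 comparisons, with wide errors in the single-cell sums, while the changes of Pdpr and Prune2 outside non-stripped aorta run from -0.77 to 0.17.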

How the data were processed

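For bulk RNA the authors deposited raw counts per gene symbol. The submitters' processing notes name GRCm38 and the tools STAR 2.5.2b, Trimmomatic 0.36, Subread 1.5.2 and featureCounts, without saying which order or which annotation was used. Per the labels' protocols RNA came from a Trizol extraction. The single-cell files are UMI counts made by Cell Ranger, per the file headers. Barcodes with at least 500 genes were summed per library, with no doublet call, and pairs of libraries shared 48 to 108 of these barcodes.

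Computed here: genes passing filterByExpr at a minimum count of 10 were tested by the quasi-likelihood test of edgeR 4.0.16 in R 4.3.3 with TMM factors, Benjamini-Hochberg adjusted over all genes tested, called at 0.05. The SE is the log2 fold change over the root of the F statistic. CPM are scaled with the same factors. Differences between tables were tested as interactions in a joint fit. A spread of samples may be technical, since no label says that replicates are separate mice. Floors of 3 counts and 95% intervals cover counting error only. A row without a symbol, up to 0.000686% of a library, stayed out, and 1 column of the stripped table that no label maps was not used.

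Named are Klf10, Il9, Il9r, every called gene, the next 15 per direction by unadjusted p (mean of at least 1 CPM, no overlap, no predicted genes or pseudogenes), up to 6 members of each of the described lists, and neighbours of called genes. A few others are named from the lists, windows, copies and differences and were chosen after their values were seen. The members and lists were chosen with earlier results of these data known. Positions and transcripts are from GENCODE vM21 (GRCm38), promoters from RefSeq. On counts simulated from these libraries with 200 changed genes, the test recovered 78.5% of 2-fold and 100% of 4-fold changes, with 12 and 16 false calls. Only genes above a floor on the mean count were changed, and all libraries of a group were drawn from the same mean. The simulation held no outlying library like TKO replicate 3 and no genes that move together. Its rates therefore do not cover such cases, and the 24 fast skeletal muscle genes, with a median log2 fold change of 3.21, went uncalled.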

Additional observations from a re-analysis of the deposited data

Results flagged for a closer look

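The following genes were named above and had a genotype effect that differed between non-stripped aorta and another table by the interaction test of edgeR at an adjusted p of 0.05. Values are differences of log2 fold changes, non-stripped aorta minus the other table. Against stripped aorta, Pdpr differed by 1.92. Against fibroblasts, the effect was higher in non-stripped aorta for Gm9581 by 3.82, Cep85l by 2.15, Wdfy2 by 1.70, Prune2 by 1.66, Lmbrd2 by 1.63, Pdpr by 1.55 and Atp7a by 1.49. It was lower for Gldn, with a difference of -2.58, for Col4a6 with -1.89, for Col4a5 with -1.52, for Ddr1 with -1.33, for Cd200 with -1.23 and for Laptm4b with -1.15.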

How the results depend on the processing

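The count of 18 calls moved by over 1.5 times under DESeq2 (794), with no filter on low counts (766) and in a joint fit with stripped aorta (315), and it ran from 0 to 486 when each replicate was left out. It was 22 with limma voom, 18 with RLE factors, 19 with upper quartile factors, 14 with a minimum count of 50 and 17 with exon length as an offset, a setting chosen after seeing the data. Against stripped aorta the single call became 10 with a minimum count of 50 and 0 to 242 when each replicate was left out. Against fibroblasts the 31 calls were 34 with RLE factors, 32 with a minimum count of 50 and 4 to 199 when each replicate was left out. The cause of these moves was not tested. The uncalled log2 fold change of Il9r turned to 0.14 with limma voom. When each replicate was left out it ran from -0.59 to 1.08, positive without TKO replicate 2 (0.26) and Cre replicate 3, while those of Lck ran from -1.12 to 0.25 and of Cd8a from -1.34 to 0.26, both positive without Cre replicate 3. No paired analysis was possible because the replicate numbers of the bulk groups are only names in accession order. The single-cell libraries carry numbers, and with the replicate block 0 of the 13 called genes tested there passed, as without it. Deviations from the group mean correlated at 0.437 between Cre library 1 and TKO library 1. With 2 libraries per group the pair numbered 2 mirrors this value and adds nothing. The labels do not say that a number marks a batch. Depth limits Il9, at 0 counts in every library.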
